A study of Mus musculus with 21 samples.

Results

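The inflammatory cytokine tumour necrosis factor alpha (TNF) was given for 24 h to adipocytes of the mouse line 3T3-L1, and gene expression was compared with that of control adipocytes. The comparison rests on the labels alone, 3 arrays labelled TNF at 24 h against 3 arrays labelled control at 0 h, which are 6 of the 21 arrays of the series. 3T3-L1 is an established clonal line of mouse embryo fibroblasts that turns into fat-storing adipocytes in culture. Every group used here, the control included, had been differentiated for 14 days from preadipocytes and was labelled as biological replicates, with no allele or transgene named. Cells given TNF for 2 h or for 6 d, and cells given 20 nM dexamethasone (Dex, a synthetic glucocorticoid) for 24 h, served to place the response at 24 h, the time that the series text calls intermediate on the way to insulin resistance. The TNF dose and the vehicle are not given in the labels, and the control was harvested at 0 h, so no vehicle group of the same time is at hand. Against control, TNF therefore cannot be told apart from 24 h more of culture.

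TNF binds receptors 1 and 2 on the cell surface, whose adaptors activate the IKK kinases. These mark the inhibitor IκBα for destruction, and the transcription factor NF-κB then enters the nucleus and turns on chemokines, cytokines and its own inhibitors. In adipocytes TNF is known for opposing insulin, for releasing fatty acids from stored fat and for lowering PPARγ and C/EBPα, the factors that hold the adipocyte programme in place.

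Levels are given on the log2 scale of the deposited values, and a difference is TNF 24 h minus control on that scale with its standard error (SE) from limma, 3 arrays against 3. A gene was called when its p, adjusted over all 12118 genes tested of 18194 measured, was below 0.05. Such a gene is said to have risen or fallen. A group mean below 5.33, the median of all values, lies near background, and a difference from such a level is given as measured. Levels of different genes are not compared, since probes differ in brightness.

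The adipocyte identity of the cultures was checked on 10 marker genes, of which 8 had a probe set of their own. The summed linear level of these markers was 82187 to 102700 over the TNF 24 h arrays and 127400 to 127980 over the control arrays. Adipoq, Fabp4, Lpl, Cd36, Pparg, Cidec and Retn stood far above background in both groups, and Lep, which encodes leptin, was below it in both. Array quality differed within the treated group: probe sets at the 3' end exceeded those at the 5' end of Actb and Gapdh, which reads RNA integrity, by 0.110, 0.163 and 0.683 on the TNF 24 h arrays and by 0.112, 0.179 and 0.283 on the control arrays. TNF 24 h replicate 3 therefore stood apart, and counts are given with and without it where that matters. TNF 6 d replicate 2, where that excess was 2.0, was left out of every fit except where this outlying array is said to be kept. Its omission leaves 2 arrays at 6 d.

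After 24 h of TNF, 1603 genes rose (13.2% of those tested) and 1512 fell (12.5%). The rises were the larger changes. At least 2-fold, 466 genes rose (3.85%) and 203 fell (1.68%), and at least 8-fold, 66 rose and 2 fell. The median difference over all genes was -0.03. The arrays of the groups did not overlap for 4335 genes (35.8%). Without TNF 24 h replicate 3, 1368 genes rose and 1423 fell. With only the 6 arrays of the comparison in the model, 1017 rose and 765 fell, and with the outlying 6 d array kept in, 655 rose and 401 fell.

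**Figure D1:**
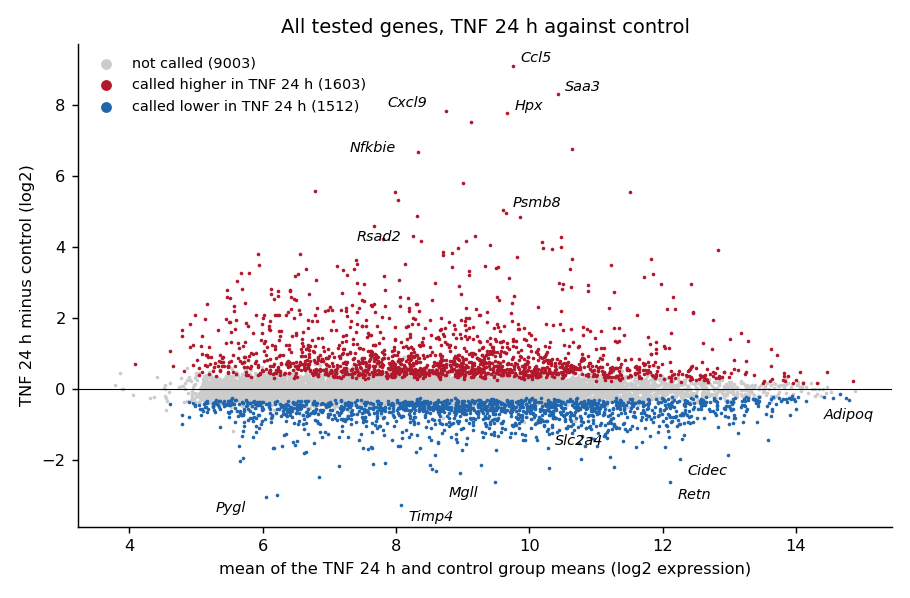
Each point is 1 of 12118 genes, placed by the mean of its TNF 24 h and control group means (x axis, log2 expression) and by its difference, TNF 24 h minus control (y axis, log2). Red points are the 1603 genes called higher in TNF 24 h and blue points the 1512 called lower; the rises reach 9.11 for Ccl5, while the falls end at -3.27 for Timp4.

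The highest rises were those of Ccl5, Saa3, Cxcl9, Hpx, Cxcl10, Ccl2, Nfkbie, Ccl8, Slc15a3, Cfb, Cxcl11 and Lcn2, a set of chemokines, acute phase proteins, an inhibitor of NF-κB, a complement factor and a peptide transporter. Their differences ran from 5.33 for Lcn2 to 9.11 for Ccl5. The deepest falls were those of Timp4, Pygl, Col11a1, Retn, Mgll, Disp2, Poln, Akr1c14, Lrrc17, Gpat3, Agt and Abca8a, from -2.18 for Abca8a to -3.27 for Timp4. Timp4, an inhibitor of metalloproteinases, had levels of 6.27, 6.65 and 6.40 in TNF 24 h arrays, against 9.73, 9.80 and 9.61 in control arrays. Its groups lay more than 2 units apart, with a difference of -3.27 ± 0.14 (adjusted p = 3.35e-13), or 9.67-fold lower. For Mgll and Disp2 another probe set of the gene did not move, at -0.07 for Mgll and 0.01 for Disp2.

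The genes were also grouped in 38 lists by function. A list is described over its tested members, and the share of all genes called is the background to read it against. A member that is bright only in the treated group enters the test through that group, which can raise the share called higher. With no filter on level, 15 of 28 chemokines, 12 of 23 acute phase genes and 13 of 27 innate sensing genes rose, where 1565 of all 18194 genes did. The median over a list with no filter on level is given where it lies well away. Members that were dim or had no probe set of their own are counted beside each list.

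**Figure D2:**
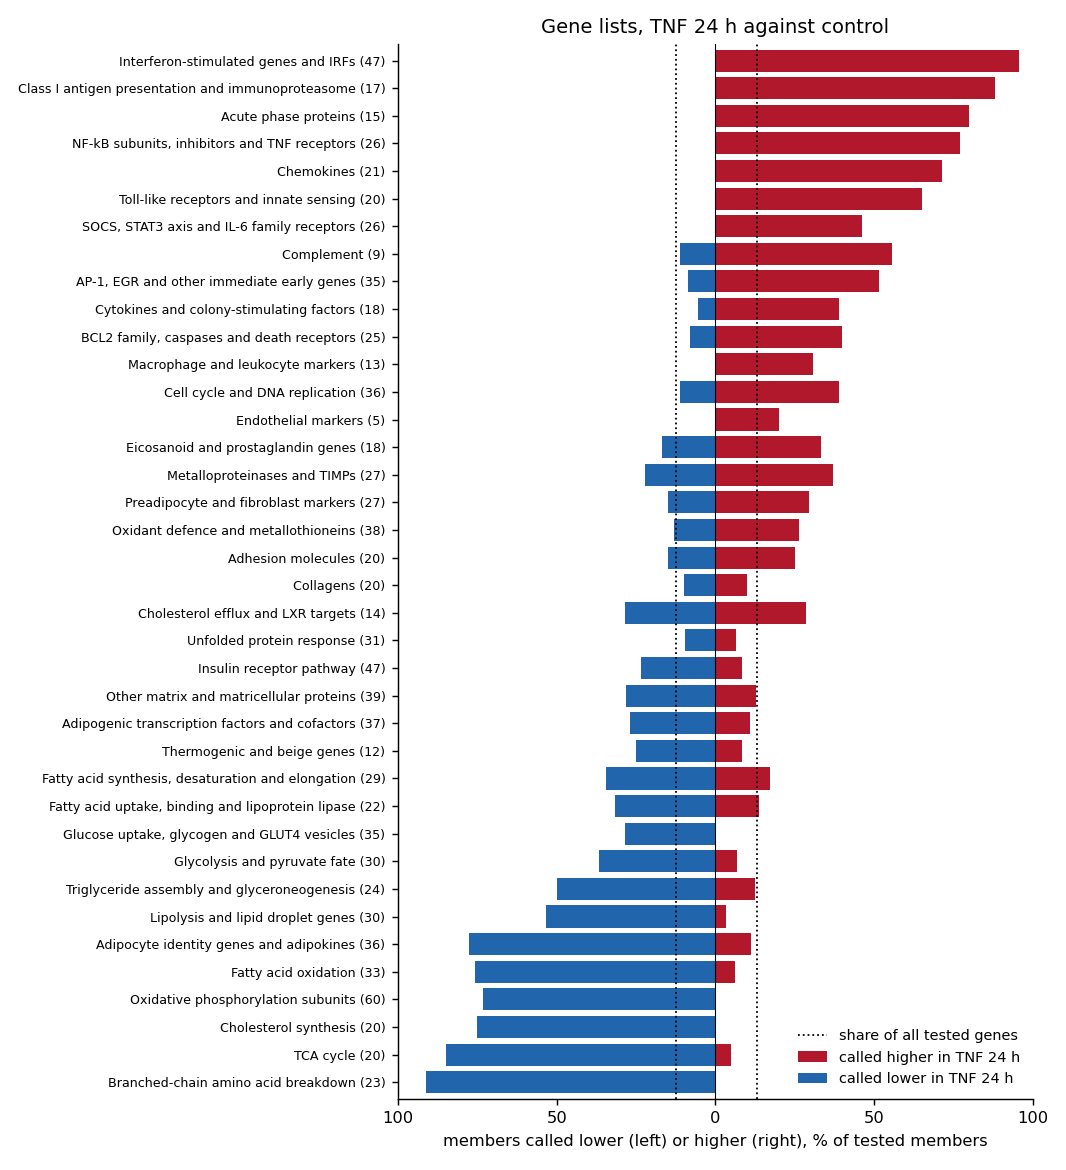
Each bar is 1 of the 38 gene lists, with its number of tested members in brackets; the length to the right is the percent of these members called higher in TNF 24 h, and the length to the left the percent called lower. Dotted lines mark the shares of all tested genes, 13.2% higher and 12.5% lower; interferon-stimulated genes (95.7% higher) stand at the top and branched-chain amino acid breakdown (91.3% lower) at the bottom.

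Genes of NF-κB signalling were higher. Of 33 listed genes, 26 were tested, 20 rose and 0 fell, where 13.2% of all genes rose and 12.5% fell. The median difference was 1.32, against -0.03 over all genes. The untested members were Traf1, which was dim, and 6 with no probe set of their own. At the receptors, Tnfrsf1a, which encodes receptor 1, had levels of 11.23, 10.94 and 11.50 in TNF 24 h arrays, against 11.27, 11.24 and 11.45 in control arrays. These overlap, and its difference was -0.10 ± 0.11 (adjusted p = 0.559). Tnfrsf1b, which encodes receptor 2, rose by 1.93 ± 0.15 on its brighter probe set, while its other probe set stood at -0.28. Among the NF-κB subunits, Rela rose by 0.83 ± 0.09, Nfkb2 by 1.53 ± 0.19 and Relb, of the non-canonical branch, by 3.17 ± 0.15.

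The largest difference of the list was that of an inhibitor gene, Nfkbie, while the inhibitor gene Nfkbia moved less than Relb. Nfkbia, which encodes IκBα, had levels of 13.70, 13.71 and 13.78 in TNF 24 h arrays, against 11.93, 11.91 and 11.49 in control arrays. The groups lay clear of each other, and the difference was 1.95 ± 0.10 (adjusted p = 7.53e-12), or 3.87-fold higher. Nfkbie, which encodes IκBε, had 11.66, 11.53 and 11.85 in TNF 24 h arrays, against 4.58, 5.21 and 5.18 in control arrays, where it was near background. Its difference was 6.69 ± 0.19 (adjusted p = 7.87e-16). Tnfaip3, which encodes the ubiquitin-editing enzyme A20, had 11.09, 11.22 and 10.90 in TNF 24 h arrays, against 7.50, 7.87 and 7.48 in control arrays, with no overlap and a difference of 3.45 ± 0.15 on the brighter of its probe sets, the other of which stood at 0.34. Bcl3, an atypical IκB protein, rose by 3.52 ± 0.19 and Birc3, a ubiquitin ligase of the receptor complex, by 2.60 ± 0.14.

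The promoters of Nfkbia and Il6, a pair of classic NF-κB targets that both rose, show the letters searched for. Each runs from 250 bases before the annotated start to 50 after it (RefSeq, GRCm38.p6). Capitals mark the NF-κB motif searched for on both strands: GGGA or GGGG, then any base, then TTTCC. Nfkbia lies at chr12:55492598-55492897, minus strand, with the match 29 to 20 bases before the start, and Il6 at chr5:30012864-30013163, plus strand, with the match 44 to 35 bases before it.
Nfkbia: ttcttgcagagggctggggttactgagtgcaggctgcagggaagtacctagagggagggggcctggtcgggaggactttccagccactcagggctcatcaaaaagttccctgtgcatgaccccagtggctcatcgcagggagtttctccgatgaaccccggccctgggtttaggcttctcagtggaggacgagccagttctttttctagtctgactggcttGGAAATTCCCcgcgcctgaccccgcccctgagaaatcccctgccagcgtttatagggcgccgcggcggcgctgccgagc
Il6: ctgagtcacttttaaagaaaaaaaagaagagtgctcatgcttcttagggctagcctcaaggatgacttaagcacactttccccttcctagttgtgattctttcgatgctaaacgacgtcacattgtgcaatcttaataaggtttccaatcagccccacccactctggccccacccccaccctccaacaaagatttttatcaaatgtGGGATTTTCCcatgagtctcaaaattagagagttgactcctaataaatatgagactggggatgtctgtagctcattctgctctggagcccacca
A match was held by 7 of the 20 promoters found for the tested NF-κB list (35%) and by 4 of the 13 found for the tested chemokines (30.8%), against 0.922% of the promoters of all 27018 genes. Over all genes that rose the share was far smaller, 32 of 1308 promoters (2.45%), against 1.04% for the genes tested. A match is a run of letters, and binding was not measured.

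Chemokines, the secreted proteins that attract leukocytes, included the highest rise of any gene. Of 29 listed, 21 were tested, 15 rose, 0 fell, and the median difference was 2.23. With no filter on level the median over 28 chemokines was 0.83. Of the list, 7 were dim and 1 had no probe set of its own. Ccl5, which attracts T cells and monocytes, had levels of 14.25, 14.18 and 14.50 in TNF 24 h arrays, against 5.19, 5.25 and 5.16 in control arrays. The control level was near background on every array and the treated level near the top of the scale, and the difference was 9.11 ± 0.21 (adjusted p = 3.43e-17). Ccl2, which recruits monocytes, had 14.07, 13.92 and 14.08 in TNF 24 h arrays, against 7.62, 7.25 and 6.90 in control arrays. The groups were far apart at a difference of 6.77 ± 0.20, or 109-fold higher. The ligands of the receptor CXCR3 all rose: Cxcl9 by 7.85 ± 0.16, Cxcl10 by 7.54 ± 0.23 and Cxcl11 by 5.55 ± 0.27, with control means at or near background. The neutrophil attractants rose less, Cxcl5 by 3.44 ± 0.18 and Cxcl1 by 1.50 ± 0.13. Cxcl2, of the same family, was at background in both groups, with 3.91, 3.84 and 3.90 in TNF 24 h arrays and 3.79, 4.05 and 3.86 in control arrays.

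Fewer cytokines were called. Of 28, 18 were tested, 7 rose and 1 fell (Tgfb2), with a median of 0.36, and 10 were dim, among them Tnf and Il1b. With no filter the median over all 28 was 0.20. Il6, a cytokine that acts on liver, immune and fat cells, had levels of 8.25, 8.05 and 8.70 in TNF 24 h arrays, against 4.84, 4.74 and 5.29 in control arrays. The control level was near background, and the difference was 3.37 ± 0.32 (adjusted p = 8.22e-08). Csf1, the growth factor of macrophages, had 12.31, 11.94 and 12.66 in TNF 24 h arrays, against 9.02, 8.96 and 8.79 in control arrays, with a difference of 3.38 ± 0.16 and no overlap. Il15 rose by 2.33 ± 0.20. Il33, an alarm cytokine, was spread widely, with 6.41, 5.41 and 8.45 in TNF 24 h arrays, against 4.01, 3.98 and 4.51 in control arrays, and rose by 2.59 ± 0.48; its highest value was on the array with the large 3' excess.

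Receptors and signal relays of the IL-6 family also rose. Of 27 genes, 26 were tested, 12 rose and 0 fell, with a median of 0.35. Osmr, the receptor of oncostatin M, rose by 2.96 ± 0.18, and Il6st, which encodes the shared subunit gp130, by 1.11 ± 0.16. Jak2, a kinase bound to such receptors, rose by 1.19 ± 0.12. Socs3, an inhibitor of STAT3 and of insulin signalling, had 9.16, 8.74 and 10.03 in TNF 24 h arrays, against 7.92, 8.03 and 7.69 in control arrays, which do not overlap, at a difference of 1.43 ± 0.29 (adjusted p = 0.000889).

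Acute phase proteins, best known from the liver, rose in most tested cases. Of 27 listed, 15 were tested, 12 rose and 0 fell, with a median of 2.16; 8 were dim and 4 had no probe set of their own. With no filter the median over 23 members was 0.58. Saa3, the serum amyloid A of mouse fat cells and macrophages, had levels of 14.61, 14.67 and 14.48 in TNF 24 h arrays, against 5.94, 6.74 and 6.15 in control arrays. Treated arrays lay near the top of the scale, where their spread can be compressed, and far above the control ones, at a difference of 8.31 ± 0.21 (adjusted p = 7.8e-17). Hpx, the haem carrier hemopexin, had 13.66, 13.38 and 13.62 in TNF 24 h arrays, against 5.62, 6.32 and 5.40 in control arrays, a difference of 7.77 ± 0.19. Hp, which encodes haptoglobin, rose by 3.91 ± 0.06 from a control level already well above background. Lcn2, the iron-sequestering lipocalin, had 10.73, 9.72 and 11.63 in TNF 24 h arrays, against 5.35, 5.33 and 5.41 in control arrays. All treated values were higher, yet they spread over nearly 2 units, and the difference was 5.33 ± 0.35.

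In the complement list, 9 of 23 genes were tested, 5 rose and 1 fell (Cd59a), with a median of 0.31, while 9 were dim and 5, C3 and Cfd among them, are not analysed here. With no filter the median over 18 members was -0.03. Cfb, factor B of the alternative pathway, had 14.42, 14.24 and 14.20 in TNF 24 h arrays, against 8.31, 8.65 and 9.25 in control arrays. The groups lay far apart at a difference of 5.55 ± 0.22. C1ra and C1s1, proteases of the classical pathway, rose by 1.76 ± 0.18 and 1.57 ± 0.17. Masp1 passed the test at 0.52 ± 0.18 and missed it without TNF 24 h replicate 3, where 3 complement genes rose, or without any single control array. The count of risers was also 3 without control replicate 2 or 3.

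Sensors of bacterial products rose as well. Of 31 innate sensing genes, 20 were tested, 13 rose and 0 fell, with a median of 0.74, or 0.28 over 27 with no filter; 7 were dim and 4 had no probe set of their own. The count was 8 with the outlying 6 d array kept in the model. Tlr2, a receptor for bacterial lipoproteins, had levels of 12.28, 12.04 and 12.07 in TNF 24 h arrays, against 6.87, 7.07 and 7.58 in control arrays, with no overlap and a difference of 4.96 ± 0.16 (adjusted p = 3.6e-15). Lbp, which carries lipopolysaccharide, rose by 4.18 ± 0.23, Casp4, the mouse caspase-11 that senses it inside the cell, by 3.78 ± 0.14, and Il1rap, the shared subunit of interleukin-1 receptors, by 2.60 ± 0.21. Cd14, a co-receptor for lipopolysaccharide that monocytes also carry, rose by 1.77 ± 0.20.

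Markers of macrophages and leukocytes were read beside these groups. Of 33 listed, 32 had a probe set and 20 lay below background in both groups, among them Adgre1, Itgam, Ptprc and Tyrobp, which define such cells. Of 13 tested, with a median difference of 0.03, 4 rose. They were Mpeg1 (2.28 ± 0.13), Cd14, Cd68 (1.57 ± 0.17) and Csf1r (0.51 ± 0.18). The summed linear level of the list was 1980.5 to 2355.8 in TNF 24 h arrays and 1454.8 to 1619.6 in control arrays, so the groups did not overlap. Bright members that rose weigh heavily in such a sum, here Mpeg1 (mean 8.58 in TNF 24 h against 6.31 in control) and Cd14 (8.37 against 6.60). Of 14 endothelial markers, 9 were below background in both groups and 1 of 5 tested rose, with a median of -0.10. It was Eng (0.55 ± 0.15), of which another probe set stood at -0.07. The summed level of these was 675.21 to 722.15 in TNF 24 h arrays and 646.13 to 723.27 in control arrays. The part of such cells in the results was not tested.

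Genes that answer interferon rose almost throughout. Type I interferons act through factors that bind the interferon-stimulated response element and switch on antiviral effectors. Of 58 listed genes, 47 were tested, 45 rose and 0 fell, with a median of 2.16; 4 were dim and 7, Isg15 among them, are not analysed here. The tested members that were not called were Irf3 and Irf5. Oasl2, a relative of the sensors of double-stranded RNA, had levels of 11.08, 10.89 and 10.32 in TNF 24 h arrays, against 5.59, 6.08 and 5.97 in control arrays, and a difference of 4.88 ± 0.29 (adjusted p = 6.65e-11). Rsad2, which encodes the antiviral enzyme viperin, had 10.61, 10.67 and 10.10 in TNF 24 h arrays, against 6.45, 6.40 and 6.04 in control arrays. Ifit1, which binds viral RNA caps, had 10.88, 10.96 and 10.90 in TNF 24 h arrays, against 7.36, 7.22 and 6.23 in control arrays. For all 3 genes every treated array exceeded every control array by more than 3 units, and the differences were 4.17 ± 0.17 for Rsad2 and 3.98 ± 0.28 for Ifit1. Zbp1, a sensor of unusual nucleic acids, rose by 4.31 ± 0.20, and Irf1, a factor that NF-κB also drives, by 1.64 ± 0.10. Ifnb1, which encodes interferon beta, stood at a difference of -0.12 ± 0.14 (adjusted p = 0.574) and was not called.

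The promoters of Ifit1 and Rsad2 carry the response element's letters, which is why they are shown. Capitals mark TTTC, any 2 bases and TTTC again, searched for on both strands of the same window (RefSeq, GRCm38.p6). Ifit1 lies at chr19:34640639-34640938, plus strand, with matches 104 to 95 and 85 to 76 bases before the start, and Rsad2 at chr12:26456403-26456702, minus strand, with the match 120 to 111 bases before it.
Ifit1: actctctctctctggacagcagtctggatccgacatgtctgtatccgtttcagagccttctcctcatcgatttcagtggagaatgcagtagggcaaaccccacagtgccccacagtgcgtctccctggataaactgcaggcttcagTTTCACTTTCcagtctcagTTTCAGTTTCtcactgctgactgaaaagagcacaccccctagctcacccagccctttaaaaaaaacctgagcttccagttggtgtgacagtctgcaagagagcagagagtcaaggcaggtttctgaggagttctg
Rsad2: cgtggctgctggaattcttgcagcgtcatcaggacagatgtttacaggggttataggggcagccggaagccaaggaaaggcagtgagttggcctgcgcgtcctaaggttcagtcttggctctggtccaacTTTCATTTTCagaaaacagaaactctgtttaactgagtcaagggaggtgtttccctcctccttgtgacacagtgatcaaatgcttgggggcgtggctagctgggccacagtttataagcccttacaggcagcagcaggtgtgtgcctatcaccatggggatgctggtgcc
Of 38 promoters found for the tested interferon list, 21 held a match (55.3%), and of 14 for the class I list, 3 did (21.4%), against 3.99% of the promoters of all genes. Over all genes that rose, 92 of 1308 promoters held a match (7.03%), against 3.56% for the genes tested. The factors that bind these letters were not measured.

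The machinery that cuts and loads peptides for class I display rose alongside. Of 20 listed genes, 17 were tested, 15 rose and 0 fell, with a median of 1.72, and 3 had no probe set of their own. Canx and Pdia3, general chaperones of the endoplasmic reticulum, were not called. Psmb8, a catalytic subunit of the immunoproteasome, had levels of 11.94, 11.95 and 12.51 in TNF 24 h arrays, against 6.79, 7.34 and 7.14 in control arrays. The groups lay over 4 units apart, at a difference of 5.04 ± 0.18 (adjusted p = 2.45e-14). Its partner subunits rose too, Psmb9 by 3.86 ± 0.14 and Psmb10 by 2.25 ± 0.09. Tap1, of the peptide transporter, rose by 2.97 ± 0.13.

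Immediate early genes were still raised at 24 h. Of 37 listed, 35 were tested, 18 rose and 3 fell (Dusp4, Gadd45g and Nr4a1), with a median of 0.43. Junb, a subunit of the AP-1 factor, had 8.58, 8.25 and 8.19 in TNF 24 h arrays, against 5.44, 5.06 and 5.28 in control arrays, a difference of 3.08 ± 0.16. Egr2 rose by 2.17 ± 0.23, Gadd45b by 2.20 ± 0.19 and Dusp6, a phosphatase that switches off ERK, by 1.77 ± 0.24.

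Against these rises, genes of the adipocyte were lower. In bulk RNA, fewer cells of a type and less RNA per cell cannot be told apart. Among adipogenic transcription factors and cofactors, 37 of 43 were tested, 10 fell (27%) and 4 rose (10.8%), with a median of -0.13. Of all genes 12.5% fell and 13.2% rose. Pparg, the master factor of fat cells, had levels of 12.19, 12.32 and 11.75 in TNF 24 h arrays, against 12.76, 12.73 and 12.65 in control arrays. The groups did not overlap and differed by -0.63 ± 0.11 (adjusted p = 0.000279), or 1.54-fold lower. Cebpa, its partner, had 9.28, 9.12 and 8.76 in TNF 24 h arrays, against 10.12, 9.96 and 9.60 in control arrays. Here too the groups stayed apart, with a difference of -0.84 ± 0.19. Nrip1, a corepressor, fell by 1.10 (SE 0.22), Ppargc1a, the coactivator PGC-1α, by 0.70 (SE 0.18) and Nr1h3, the oxysterol receptor LXRα, by 0.77 (SE 0.24). Klf15 fell by 0.87 (SE 0.27), but it and Nr1h3 missed the threshold without TNF 24 h replicate 3 and without control replicate 1 or 2. The risers were Cebpd (1.15 ± 0.15), Ppard (0.93 ± 0.16), Ncoa3 (0.69 ± 0.22) and Klf4 (0.64 ± 0.16). Cebpb and Srebf1 were not called, at 0.18 ± 0.09 and 0.31 ± 0.12.

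Adipocyte identity genes and adipokines fell in number. Of 46 listed, 36 were tested, 28 fell, 4 rose and the median was -0.75; 6 were dim, Lep among them, and 4, Plin1 and Cfd included, are not analysed here. Retn, which encodes the adipokine resistin, had levels of 10.76, 11.20 and 10.43 in TNF 24 h arrays, against 13.61, 13.59 and 13.12 in control arrays. No arrays overlapped, and the difference was -2.64 ± 0.16 (adjusted p = 1.16e-10), or 6.25-fold lower. Agt, which encodes angiotensinogen, had 10.29, 10.33 and 9.87 in TNF 24 h arrays, against 12.44, 12.38 and 12.29 in control arrays, a difference of -2.21 ± 0.13. Thrsp, a regulator of fat synthesis, differed by -1.87 ± 0.15.

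Adipocyte genes near the top of the scale differed little. Adipoq, which encodes adiponectin, had levels of 14.65, 14.73 and 14.48 in TNF 24 h arrays, against 14.87, 14.88 and 14.88 in control arrays, and differed by -0.25 ± 0.06. Lpl, lipoprotein lipase, differed by -0.25 ± 0.05. Both lie close to the highest value on the arrays, 15.06, where differences can be compressed. Fabp4, the fatty acid binding protein of adipocytes, overlapped between groups at 14.87, 14.96 and 14.76 in TNF 24 h arrays, against 14.92, 14.94 and 14.92 in control arrays, and was not called (-0.07 ± 0.05). Averaged over its 4 probe sets it fell by 0.44 (adjusted p = 0.0053). Of the identity list 11.1% rose, against 13.2% of all genes. The 4 members that rose were Acp5 (4.13 ± 0.19), a phosphatase better known from bone-resorbing cells, Hp, Sncg (1.21 ± 0.29) and Angptl4 (0.32 ± 0.12).

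**Figure D3:**
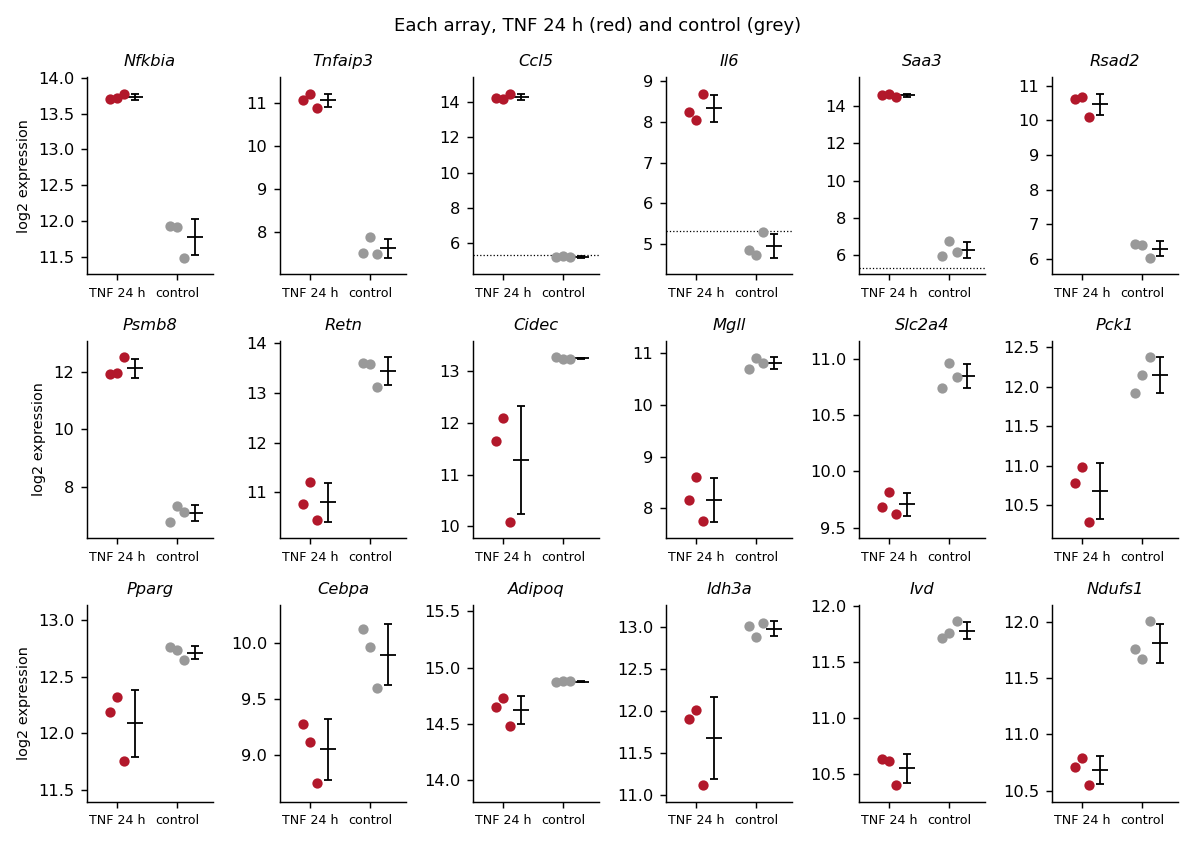
Each panel shows 1 gene on its own y axis (log2 expression): red points are the 3 TNF 24 h arrays and grey points the 3 control arrays, and black marks give the mean and SD of each group; a dotted line marks the background level of 5.33 where it is in range. Ccl5 and Saa3 stand at least 7 units apart between groups, Adipoq less than 1, and for Cidec and Idh3a the 3rd treated array lies well below the other treated ones.

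Genes of the lipid droplet and of lipolysis, the release of fatty acids from stored triglyceride, were also lower. Of 37, 30 were tested, 16 fell and 1 rose (Lipa, a lysosomal lipase), with a median of -0.49. Mgll, the lipase of the final step, had levels of 8.16, 8.60 and 7.75 in TNF 24 h arrays, against 10.69, 10.92 and 10.81 in control arrays, a difference of -2.64 ± 0.18 with the limit on its other probe set given above. Cidec, a droplet fusion protein, had 11.66, 12.09 and 10.09 in TNF 24 h arrays, against 13.26, 13.24 and 13.24 in control arrays. The lowest value was that of TNF 24 h replicate 3, and the difference was -1.97 ± 0.30. Lipe, hormone-sensitive lipase, differed by -1.27 ± 0.14, and Pnpla2, which encodes the first lipase ATGL, by -0.62 ± 0.08. G0s2, an inhibitor of ATGL, differed by -1.07 ± 0.19, and Pde3b, through which insulin restrains lipolysis, by -1.04 ± 0.16. Aqp7, a glycerol channel, differed by -1.69 ± 0.18 and Bscl2, the droplet assembly protein seipin, by -1.34 ± 0.14.

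Enzymes that assemble triglyceride fell in 12 of 24 tested cases of 25 listed, and 3 rose (Agpat4, Plpp1 and Plpp3), with a median of -0.36. The share that rose, 12.5%, lies near the 13.2% of all genes. Gpat3, which adds the first fatty acid, had 9.13, 9.37 and 9.01 in TNF 24 h arrays, against 11.39, 11.28 and 11.57 in control arrays, with no overlap and a difference of -2.24 ± 0.13 (adjusted p = 3.64e-11). Pck1 acts in the path that makes glycerol 3-phosphate from smaller molecules. It had 10.77, 10.98 and 10.29 in TNF 24 h arrays, against 11.92, 12.14 and 12.37 in control arrays. Its groups were apart as well, at -1.46 ± 0.17. Gpd1 differed by -1.40 ± 0.08. Dgat2, of the last step, differed by -0.49 ± 0.11.

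Of 35 genes of fatty acid synthesis, 29 were tested, with a median of -0.25. Of these 10 fell (34.5%, against 12.5% of all genes) and 5 rose (17.2%, against 13.2%). The risers numbered 3 without control replicate 1 or 2 or TNF 24 h replicate 1, 1 with only the 6 arrays compared, and 0 with the outlying 6 d array kept in. Fasn, fatty acid synthase, had 11.37, 11.38 and 11.23 in TNF 24 h arrays, against 12.45, 12.62 and 12.55 in control arrays, a difference of -1.21 ± 0.11 without overlap. Me1, which supplies NADPH, differed by -1.32 ± 0.16 and Acss2, which activates acetate, by -1.17 ± 0.19. Scd1, a desaturase near the top of the scale, differed by -0.30 ± 0.05. In fatty acid uptake, 22 of 29 were tested, 7 fell (31.8%) and 3 rose (13.6%), with a median of -0.14. The share that rose lies near the 13.2% of all genes. Leaving out control replicate 1 or 2, or TNF 24 h replicate 1 or 2, gave 1 riser, and keeping the outlying 6 d array gave 1 riser and 4 that fell. Cd36, a fatty acid transporter, fell by 0.74 (SE 0.16), Acsl3 by 1.26 (SE 0.18) and Angptl8 by 1.44 (SE 0.22), while Acsl5 rose by 1.40 ± 0.12.

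Genes of insulin action were mostly not called. Of 56 in the insulin receptor pathway, 47 were tested, 11 fell, 4 rose, and the median was -0.11. The share that rose, 8.51%, lay below the 13.2% of all genes, and the share that fell, 23.4%, lay above the 12.5% of all genes. The receptor itself, Insr, had levels of 9.53, 9.66 and 9.62 in TNF 24 h arrays, against 9.59, 9.69 and 9.91 in control arrays, which overlap, with a difference of -0.13 ± 0.20. Irs1, the main docking protein of adipocytes, had 12.22, 12.35 and 11.95 in TNF 24 h arrays, against 12.66, 12.73 and 12.85 in control arrays. Its groups did not overlap, and it fell by 0.57 (SE 0.14). Irs2 was not called, at -0.20 ± 0.29. Tbc1d4, also known as AS160, through which AKT releases GLUT4 vesicles, differed by -1.23 ± 0.23 on its brighter probe set and by -0.18 on the other. The members that rose were Grb14 (1.46 ± 0.19), an adaptor that inhibits the receptor, Trib1 (1.0 ± 0.19), Igf1r (0.79 ± 0.16) and Trib2 (0.78 ± 0.18).

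Among genes of glucose uptake and glycogen, 35 of 41 were tested, 10 fell and 0 rose, with a median of -0.12. Slc2a4, which encodes the insulin-responsive transporter GLUT4, had levels of 9.68, 9.82 and 9.62 in TNF 24 h arrays, against 10.74, 10.96 and 10.84 in control arrays. All treated arrays were lower, at a difference of -1.14 ± 0.11 (adjusted p = 1.14e-07), or 2.2-fold lower. Slc2a1, the basal transporter GLUT1, was not called at 0.46 ± 0.29. Pygl, a glycogen phosphorylase, had 4.74, 5.10 and 3.73 in TNF 24 h arrays, against 7.59, 7.55 and 7.60 in control arrays, near background in the treated cells, and differed by -3.06 ± 0.26. Ppp1r3c, which ties a phosphatase to glycogen, differed by -1.34 ± 0.33. In glycolysis and pyruvate use, 30 of 36 were tested, 11 fell and 2 rose (Hk1 and Pfkfb4), with a median of -0.23. Pdhb and Dlat, of the pyruvate dehydrogenase complex, differed by -1.35 ± 0.14 and -0.98 ± 0.11. With the outlying 6 d array kept in the model, 5 genes of this list fell, and likewise 4 of the adipogenic factors, 10 of lipolysis and 4 of the insulin receptor pathway. In that model 1 adipogenic factor, 2 adipocyte identity genes and 1 gene of triglyceride assembly rose, and with only the 6 arrays compared 7 genes of the insulin receptor pathway fell.

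Mitochondrial fuel enzymes were lower in most tested cases. In fatty acid oxidation 33 of 36 were tested, 25 fell and 2 rose (Cpt1a and Acaa1a), with a median of -0.74. In the tricarboxylic acid (TCA) cycle 20 of 21 were tested, 17 fell and 1 rose (Suclg2), with a median of -0.57. In branched-chain amino acid breakdown 23 of 26 were tested, 21 fell and 0 rose, with a median of -0.80; Bckdhb and Hsd17b10 were not called. Of 60 oxidative phosphorylation subunits tested of 64, 44 fell and 0 rose, at a median of -0.33. Without TNF 24 h replicate 3, which had the lowest level of several of these genes and the large 3' excess, 19 of fatty acid oxidation, 16 of the TCA cycle, 19 of branched-chain amino acid breakdown and 50 of oxidative phosphorylation fell. With the outlying 6 d array kept in the model these counts were 13, 6, 7 and 13, and with only the 6 arrays of the comparison 29 oxidative phosphorylation subunits fell.

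Cpt2, which hands fatty acids to the mitochondrial matrix, had levels of 10.84, 10.86 and 10.94 in TNF 24 h arrays, against 11.93, 11.98 and 12.28 in control arrays. The treated arrays agreed closely and lay below all control arrays, at a difference of -1.19 ± 0.11. Idh3a, of the TCA cycle, had 11.91, 12.01 and 11.11 in TNF 24 h arrays, against 13.01, 12.88 and 13.05 in control arrays. Its 3rd treated array was the lowest, and the difference was -1.31 ± 0.15. Ivd, which takes leucine breakdown forward, had 10.63, 10.61 and 10.39 in TNF 24 h arrays, against 11.71, 11.76 and 11.86 in control arrays, with no overlap, a difference of -1.23 ± 0.10 and an adjusted p of 1.21e-08. Mccc1 and Mccc2, the subunits of the next enzyme of that path, differed by -1.05 ± 0.08 and -1.02 ± 0.14. Ndufs1, the largest subunit of complex I, had 10.71, 10.79 and 10.55 in TNF 24 h arrays, against 11.76, 11.67 and 12 in control arrays. The groups were clearly apart at -1.13 ± 0.10. Uqcrc2 and Uqcrfs1 of complex III differed by -1.06 ± 0.17 and -0.97 ± 0.15, and Atp5a1 of the ATP synthase by -0.98 ± 0.17.

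Cholesterol synthesis was lower in 15 of 20 tested genes of 25 listed, with 0 higher and a median of -0.59. The fall was not particular to TNF. After 24 h of dexamethasone, 12 of the 20 were lower than in the same control arrays and 0 higher, with a median of -0.59. Sqle, an early oxygen-using step, had 11.35, 11.37 and 11 in TNF 24 h arrays, against 11.99, 11.98 and 12.37 in control arrays, which do not overlap, and differed by -0.87 ± 0.17. Cyp51 and Nsdhl, of later steps, differed by -0.83 ± 0.20 and -0.84 ± 0.16. Without TNF 24 h replicate 3, 12 of the genes fell, and with the outlying 6 d array kept in the model 3 did.

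Matrix and fibroblast lists held genes that rose and genes that fell, with several shares close to those of all genes (13.2% higher, 12.5% lower). Of 27 metalloproteinases and inhibitors tested of 32, 10 rose and 6 fell, with a median of 0.16. Mmp3, the protease stromelysin, had levels of 9.73, 9.11 and 10.89 in TNF 24 h arrays, against 5.45, 5.40 and 6.24 in control arrays. All treated values were higher, with a difference of 4.22 ± 0.46. Timp1 rose by 3.95 ± 0.24, whereas Timp4 fell as given above and Adamts12 differed by -2.15 ± 0.22. Mmp13 spread over more than 2 units in both groups and was not called (0.75 ± 0.86). Among 20 of 25 collagen chains tested, with a median of -0.12 and shares of 10% in each direction, which lie below those of all genes, 2 rose, Col18a1 by 2.01 ± 0.13 and Col12a1 by 1.44 ± 0.16, and 2 fell, Col11a1 at -3.0 ± 0.38 and Col6a2 at -0.48 ± 0.13; Col1a1 was not called (-0.20 ± 0.26). Without TNF 24 h replicate 3, 5 collagens fell. Of 39 other matrix genes tested of 44, 11 fell and 5 rose, with a median of -0.26. With the outlying 6 d array kept in the model, 5 of them fell and 2 rose, and 6 metalloproteinases and inhibitors rose. Tnc, tenascin C, had 7.33, 7.13 and 8.11 in TNF 24 h arrays, against 4.70, 4.70 and 4.72 in control arrays, and rose by 2.82 ± 0.17, while the small proteoglycans Ogn and Lum differed by -1.97 ± 0.20 and -1.60 ± 0.36.

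Of 27 preadipocyte and fibroblast markers tested of 35, 8 rose and 4 fell (Tgfbi, Myl9, Dlk1 and Gas1), with a median of 0.04. Keeping the outlying 6 d array gave 4 that rose and 1 that fell, and without TNF 24 h replicate 2, 2 fell. Acta2, smooth muscle actin, had 11.34, 10.93 and 11.55 in TNF 24 h arrays, against 9.04, 8.97 and 8.93 in control arrays, well apart, at a difference of 2.30 ± 0.19. Pdgfra, the growth factor receptor of adipocyte precursors, rose by 1.13 ± 0.15, while Dlk1, a preadipocyte protein that blocks differentiation, fell by 0.63 (SE 0.19). The summed linear level of the markers was 44737 to 48725 in TNF 24 h arrays and 38773 to 41913 in control arrays. Bright members that rose weigh heavily in this sum too, among them Pdgfra (mean 12.46 in TNF 24 h against 11.33 in control) and Acta2 (11.27 against 8.98). Of 20 adhesion molecules tested of 27, 5 rose and 3 fell, with a median of -0.12, and without TNF 24 h replicate 3, 5 fell. Vcam1 rose by 2.26 ± 0.14, Cd44, the hyaluronan receptor, by 3.20 ± 0.24 and Icam1 by 1.06 ± 0.16, from a control level at background.

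Genes of the response differed between 2 h and 24 h in both directions. Between these groups, TNF 24 h minus TNF 2 h, 1455 genes were higher (12%) and 1238 lower (10.2%), with a median over all genes of 0.02. TNF 2 h replicate 2 had a 3' excess of 0.736, and without it 1615 genes were higher and 991 lower. NF-κB list members were lower at 24 h in 11 of 26 cases and higher in 5, and immediate early genes lower in 9 of 35 and higher in 5. In a model of only these 2 groups the NF-κB counts were 8 and 1, and with the outlying 6 d array kept in they were 4 and 1. Tnfaip3 had levels of 11.09, 11.22 and 10.90 in TNF 24 h arrays, against 12.40, 12.59 and 12.41 in TNF 2 h arrays, a difference of -1.40 ± 0.15. Nfatc1, a factor of calcium signalling, had 6.54, 6.76 and 6.61 in TNF 24 h arrays, against 10.29, 10.67 and 10.02 in TNF 2 h arrays. At -3.69 ± 0.17 it was the deepest fall between the times, with Cxcl2 next at -3.07 ± 0.20. Irf1 was lower by 1.97 (SE 0.10).

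The interferon and class I genes ran the other way. Of 47 interferon-stimulated genes, 35 were higher at 24 h than at 2 h and 2 lower, with a median of 1.33, and all 15 called class I genes of 17 were higher. Rsad2 had levels of 10.61, 10.67 and 10.10 in TNF 24 h arrays, against 6.68, 6.23 and 6.73 in TNF 2 h arrays, where it was at the control level. Its difference was 3.91 ± 0.17, and that of Oasl2 4.64 ± 0.29. The highest differences were those of Cxcl11 (4.95 ± 0.27), Ccl8 (4.70 ± 0.31), Oasl2, Ccl5 (4.64 ± 0.21) and Slc15a3 (4.39 ± 0.21), a transporter of bacterial peptides. The class I count was 7 with the outlying 6 d array kept in the model.

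Adipocyte and mitochondrial genes also moved between 2 h and 24 h. Adipocyte identity genes were lower at 24 h in 21 of 36 cases, fatty acid oxidation in 20 of 33, the TCA cycle in 16 of 20, branched-chain amino acid breakdown in 17 of 23 and oxidative phosphorylation in 39 of 60. In a model of only these 2 groups the last 4 counts were 13, 9, 10 and 8, and with the outlying 6 d array kept in they were 7, 4, 4 and 5, with 13 for adipocyte identity. Retn had 10.76, 11.20 and 10.43 in TNF 24 h arrays, against 13.51, 13.50 and 13.10 in TNF 2 h arrays, a difference of -2.58 ± 0.16. Pparg went the other way, with 12.19, 12.32 and 11.75 in TNF 24 h arrays, against 11.45, 11.23 and 11.28 in TNF 2 h arrays. All its 24 h arrays were higher than those at 2 h, by 0.77 ± 0.11 (adjusted p = 4.36e-05), although they remained below control. Cebpa was not called between the times (0.20 ± 0.19).

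**Figure D4:**
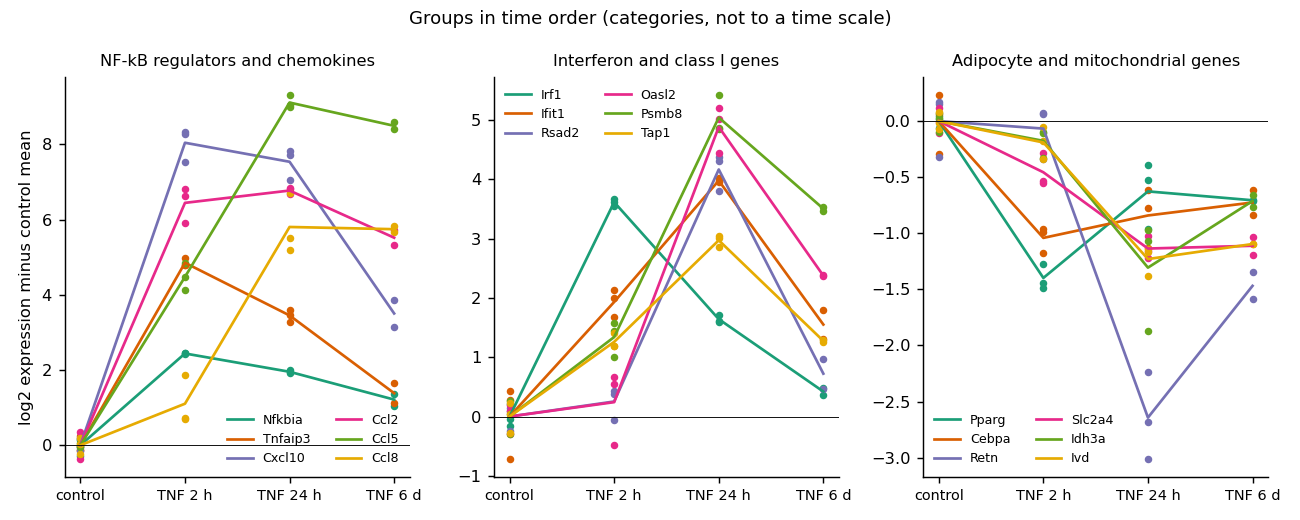
Each panel follows 6 genes over control, TNF 2 h, TNF 24 h and TNF 6 d (x axis, categories that are not to a time scale); points are single arrays as log2 expression minus the control mean (y axis) and lines join group means, with 2 arrays at 6 d. Tnfaip3, Irf1 and Nfkbia are highest at 2 h, the other interferon and class I genes at 24 h, and Retn lies lowest at 24 h while Pparg and Cebpa lie lowest at 2 h.

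Between 24 h and 6 d most interferon-stimulated genes were lower at the later time. In TNF 6 d minus TNF 24 h, 501 genes were higher (4.13%) and 617 lower (5.09%), with 2 arrays at 6 d. Without 6 d replicate 1 these counts were 239 and 322, and without replicate 3 they were 168 and 257. Of 47 interferon-stimulated genes, 40 were lower at 6 d and 0 higher, with a median of -1.25 against -0.02 over all genes. Cxcl9 had levels of 7.84 and 7.47 in TNF 6 d arrays, against 12.78, 12.54 and 12.69 in TNF 24 h arrays, a difference of -5.01 ± 0.18. Rsad2 had 7.27 and 6.76 in TNF 6 d arrays, against 10.61, 10.67 and 10.10 in TNF 24 h arrays, and differed by -3.44 ± 0.19. Both were far lower at 6 d. Of the NF-κB list 14 of 26 were lower and of the chemokines 10 of 21, with 0 higher in either. Ccl5 and Saa3, both near the top of the scale at either time, were not called, at -0.62 ± 0.24 and -0.36 ± 0.23.

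Between 24 h and 6 d, 0 of 33 fatty acid oxidation genes were higher and 1 lower, 1 of 20 TCA cycle genes was higher, 1 of 23 of branched-chain amino acid breakdown was higher, and 2 of 60 oxidative phosphorylation subunits were lower. These shares are near or below those of all genes, 4.13% higher and 5.09% lower, and show nothing particular to these lists. Retn had 12.09 and 11.85 in TNF 6 d arrays, against 10.76, 11.20 and 10.43 in TNF 24 h arrays, and was higher at 6 d by 1.17 ± 0.18. Slc2a4 overlapped between the times, with 9.81 and 9.65 in TNF 6 d arrays, against 9.68, 9.82 and 9.62 in TNF 24 h arrays, at a difference of 0.02 ± 0.12. Matrix genes were higher at 6 d in 11 of 39 cases and metalloproteinases and inhibitors in 12 of 27; without 6 d replicate 3 each count was 5, and without replicate 1 the matrix count was 7. The highest differences were those of Sned1, a matrix protein (3.06 ± 0.23), Mamdc2 (3.05 ± 0.32), Akr1c14 (2.86 ± 0.32), Lrrc17 (2.70 ± 0.38) and Ecrg4 (2.63 ± 0.32). The lowest after Cxcl9 were 2610528A11Rik (-4.06 ± 0.72), Cxcl10 (-4.03 ± 0.26), Rsad2 and Melk (-3.08 ± 0.25).

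Cells given TNF for 24 h differed from those given dexamethasone for 24 h at many genes. In TNF 24 h minus Dex 24 h, 1953 genes were higher (16.1%) and 2058 lower (17%), with a median over all genes of -0.01. Of 47 interferon-stimulated genes 45 were higher under TNF and 1 lower, and of 21 chemokines 16 were higher and 2 lower. Part of this lies on the side of dexamethasone. In Dex 24 h minus control, 15 of the 47 interferon-stimulated genes were lower and 2 higher. Of the 21 chemokines, 7 were lower and 3 higher. Cxcl5 had levels of 11.49, 11.26 and 11.02 in TNF 24 h arrays, against 3.81, 4.10 and 4.15 in Dex 24 h arrays, where it was below background, a difference of 7.23 ± 0.18. That exceeds its rise over control given above, since its mean was lower under dexamethasone than in control. The highest differences were those of Ccl5, Cxcl9, Cxcl10, Hpx and Ccl2, from 7.62 to 9.15. The lowest were Ear3 (-7.71 ± 0.21), a ribonuclease gene, Fam107a (-6.70 ± 0.26), Apoc3 (-6.42 ± 0.24), Cyp2e1 (-6.02 ± 0.22) and Cpm (-5.95 ± 0.25). For all 5 the TNF 24 h mean was at or near background.

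Some acute phase genes were high under both agents. Lcn2 had 10.73, 9.72 and 11.63 in TNF 24 h arrays, against 11.32, 11.38 and 11.17 in Dex 24 h arrays, which overlap, and was not called (-0.60 ± 0.35). Mt2, a metallothionein, had 13.32, 13.23 and 13.79 in TNF 24 h arrays, against 13.53, 13.42 and 13.73 in Dex 24 h arrays, and was likewise not called (-0.11 ± 0.13). Hp was higher under TNF by 0.58 ± 0.06. Retn had 10.76, 11.20 and 10.43 in TNF 24 h arrays, against 14.01, 14 and 13.76 in Dex 24 h arrays, far lower under TNF at -3.13 ± 0.16, and Slc2a4 differed by -1.09 ± 0.11. Agt, with 10.29, 10.33 and 9.87 in TNF 24 h arrays, against 14.33, 14.27 and 14.30 in Dex 24 h arrays, differed by -4.14 ± 0.13. Branched-chain amino acid breakdown was lower under TNF in 22 of 23 genes, the TCA cycle in 16 of 20 and oxidative phosphorylation in 41 of 60. With the outlying 6 d array kept in the model these counts were 11, 6 and 10. Cholesterol synthesis was lower in 2 of 20 genes and higher in 3, and Sqle was not called (0.02 ± 0.17). These shares lie below those of all genes, 17% lower and 16.1% higher. Against control, 12 of the 20 were lower after 24 h of dexamethasone as well.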

How the data were processed

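Total RNA of 21 cultures was hybridised as biotin-labelled cRNA to Affymetrix mouse arrays. Per the submitters' processing notes the values were made with RMA, whose version, like the probe annotation, is not given in the sources used here. The deposited values are on a log2 scale, read from their range; the authors' background step and normalization stay as deposited, and precision is set by how many arrays there are.

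Of 45101 probe sets, 34958 had 1 gene symbol, 932 several and 9211 none; 34754 were given the current symbol through their Entrez ID and 204 kept the deposited one. A gene was represented by its probe set with the highest mean, and genes above 5.33 on at least 3 arrays were tested. The limma 3.58.1 model (R 4.3.3, trended empirical Bayes) held 7 groups and 20 arrays with 13 residual degrees of freedom, so SE and p use the spread of all groups, and the trend and the 6 d array left out were settled with the data known. The p-values were adjusted by Benjamini-Hochberg. An exact permutation test of 3 against 3 arrays cannot go below 0.1 and was not used. No 2 arrays were duplicates, and the labels call replicates biological without naming separate cultures, so p-values measure the spread between these samples.

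The members and gene lists were chosen with earlier results of these data known. The named genes are the 12 highest and 12 lowest called genes without overlap, up to 4 called members of each list with the largest change, a set of fixed markers, and the 5 highest and 5 lowest of each other comparison; other genes, named to complete a count or a pathway, were chosen after their values were seen. Comparisons at 24 h share the same 3 TNF arrays. Same-numbered arrays of TNF 24 h and Dex 24 h deviated together over genes (correlations 0.207, 0.235 and 0.269), whereas those of TNF 24 h and control did not by the set limit (0.0868, 0.0551 and 0.0813).
Alternatives were other sets of arrays, a replicate block, the 3' excess of Actb and Gapdh probe sets as a covariate, other filters, the mean of a gene's probe sets, median centring, cyclic loess, other moderation and leaving out each array in turn.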

Additional observations from a re-analysis of the deposited data

Results flagged for a closer look

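Among named genes, 3 were called in opposite directions against control at 2 h and 24 h, and the difference between the times was itself called (TNF 24 h minus TNF 2 h). Pfkfb3, a regulator of glycolysis, stood at -2.18 between the times, with 1.12 at 2 h and -1.07 at 24 h against control. Noct, a rhythmic phosphatase, stood at -2.81, with 1.55 at 2 h and -1.26 at 24 h. Dgat2, of triglyceride assembly, stood at -1.04, with 0.55 at 2 h and -0.49 at 24 h. Both comparisons against control share the same 3 control arrays.

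Probe sets with no gene symbol lie outside the comparisons above. Of 9160 such probe sets, Affymetrix control probe sets left out, 2474 were tested, 141 were higher in TNF 24 h than in control and 127 were lower, and they are unnamed here.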

How the results depend on the processing

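For TNF 24 h against control, keeping all 21 arrays gave 655 genes higher and 401 lower (62% of calls higher, against 51.5%), and only the 6 arrays compared gave 1017 and 765. The same 2 settings gave 364 and 327, and 611 and 538, against TNF 2 h. For TNF 6 d against 24 h, all 21 arrays gave 145 higher (19.9% of calls, against 44.8%) and moved the median of all genes to -0.24, and only the arrays compared gave 181 and 234. Against Dex 24 h, all 21 arrays gave 911 and 719. With the 3' excess of each array as a covariate, 792 genes were higher at 6 d than at 24 h. The cause was not tested. Leaving out 1 array gave 1285 to 1691 higher and 1229 to 1475 lower against control, 1072 to 1615 and 991 to 1230 against TNF 2 h, 168 to 522 and 257 to 679 for TNF 6 d against 24 h, and 1650 to 1996 and 1639 to 2046 against Dex 24 h; where 1 array is left at 6 d, it is assumed to vary like the other groups. The replicate block gave 1680 and 1637 against control, 1574 and 1343 against TNF 2 h, 601 and 690 for 6 d against 24 h and 2057 and 2177 against Dex 24 h, all within 1.5 times. The remaining settings kept each count within 1.5 times. Of 199 named genes tested, 185 were called against control and 151 of these under every setting that tested them; none changed sign while called. Signals near background on 3 arrays a group limit what could be called.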

Other observations

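Genes of cell cycle and DNA replication moved in a culture of differentiated cells. Of 44 listed, 36 were tested, 14 rose (38.9%) and 4 fell (11.1%) after 24 h of TNF, with a median of 0.14. Of all genes 13.2% rose and 12.5% fell, so the share that fell lies near that of all genes. Mcm5, a subunit of the replicative helicase, had levels of 7.0, 6.75 and 7.47 in TNF 24 h arrays, against 4.80, 5.08 and 5.59 in control arrays, and rose by 1.92 ± 0.30. Mcm3 rose by 1.17 ± 0.18, Mcm6 by 1.14 ± 0.20 and Ccnd1, which encodes cyclin D1, by 1.41 ± 0.15, while the inhibitor gene Cdkn2c stood at -0.93 ± 0.09. With the outlying 6 d array kept in the model 6 rose and 2 fell, and without control replicate 1, 9 rose. Which cells of the culture these transcripts came from was not tested.

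In oxidant defence, 38 of 46 genes were tested, 10 rose (26.3%) and 5 fell (13.2%), with a median of 0.04. Of all genes 13.2% rose and 12.5% fell, so the share that fell lies near that of all genes. Cybb, the oxidase subunit best known from phagocytes, had 6.81, 6.49 and 8.02 in TNF 24 h arrays, against 4.35, 4.35 and 4.15 in control arrays, and rose by 2.83 ± 0.24. Of 32 macrophage and leukocyte markers measured, 20 were below background in both groups and 4 rose. The summed level of the 32 was higher in TNF 24 h arrays without overlap, with Mpeg1 and Cd14 weighing heavily in it, as given above. Mt2 rose by 2.94 ± 0.13 and Sod2, the mitochondrial superoxide dismutase, by 1.34 ± 0.11, while the mitochondrial peroxidase gene Prdx3 stood at -0.98 ± 0.17 and catalase, Cat, at -0.75 ± 0.16. Among death and survival genes, 25 of 37 were tested, 10 rose (40%) and 2 fell (8%), with a median of 0.07. The death receptor gene Fas rose by 2.57 ± 0.20, and the inhibitor genes Birc3 by 2.60 ± 0.14 and Birc2 by 1.28 ± 0.10. Of 27 eicosanoid genes 18 were tested, 6 rose (33.3%) and 3 fell (16.7%), with a median of 0.09. Ptgir, the prostacyclin receptor, rose by 2.07 ± 0.14. Keeping the outlying 6 d array in the model gave 6 higher and 2 lower in oxidant defence, 6 higher among death and survival genes, and 3 higher and 1 lower among eicosanoid genes.

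The unfolded protein response had 31 of 31 genes tested, 2 higher (6.45%) and 3 lower (9.68%), with a median of 0.03, and without control replicate 3, 1 lower. Both shares lie below those of all genes, 13.2% higher and 12.5% lower. Of 12 thermogenic genes tested of 21, 1 rose (8.33%) and 3 fell (25%), with a median of -0.18, and without TNF 24 h replicate 3 6 fell. Of 14 cholesterol efflux and LXR genes tested of 19, 4 rose and 4 fell (28.6% in each direction), with a median of -0.01. Without TNF 24 h replicate 3, 3 rose and 2 fell, and 2 fell without control replicate 3. Apoe stood at -1.0 ± 0.34 and Cyp1b1 at 1.56 ± 0.10.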
